A study of Homo sapiens with 14 samples.

Results

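The heat shock proteins and their J-domain partners were described in Hep3BTAp73β cells, a line made from the human hepatocellular carcinoma line Hep3B to carry TAp73β under a tetracycline-inducible promoter. All genes whose symbol in the array's annotation begins with HSPA, HSPB, HSPD, HSPE, HSPH, HSP90 or DNAJ were taken, apart from pseudogenes and the unrelated HSPBP1, HSPBAP1 and HSPG2, and each was read on the probe set that names this gene alone and has the highest mean over all arrays. This gave 72 genes of the 19775 measured, of which 67 code for proteins and 5 are non-coding RNAs. By the place where the protein is found, 39 were cytosolic or nuclear and 13 belonged to the endoplasmic reticulum (ER). The mitochondrion had 8, and 7 were of other or uncertain places. Of the ER genes, DNAJB12 and DNAJB14 encode membrane J-proteins that face the cytosol. HSPA8, HSPA1A, HSPA1B and DNAJC25 were covered only by probe sets that name several genes, and DNAJB3 and HSPB11 had no listed probe set; these 6 were not analysed here.

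Cells given 1 µg/mL doxycycline (Dox+) were compared with untreated cells (Dox−) of the same line at 12 h and 24 h, with 2 arrays in each group, and at 48 h, with 3 arrays in each group. All 14 arrays measured total RNA on an Affymetrix 3′ expression array covering the human genome, and values are log2 levels after robust multi-array averaging (RMA), so that a difference of 1 is a doubling. Both arms carried the repressor and the TAp73β construct, and resistant colonies had been picked and expanded, so every array came from 1 engineered line; doxycycline and TAp73β cannot be told apart in these groups. The labels call the replicates biological without saying whether they were separate cultures, and the p-values measure the spread between these arrays only. The test was limma on the Dox+ and Dox− groups of 1 time point, with Benjamini-Hochberg adjustment over all 19775 genes and a threshold of 0.05.

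TP73 stood between 7.89 and 8.30 on the Dox+ arrays and between 5.82 and 6.08 on the Dox− arrays, as the labels have it. Array medians ran from 5.15 to 5.28, and the arrays correlated at 0.979 to 0.998 over probe sets. The replicate spread, as a root mean square SD over genes, was 0.196 to 0.209 at 12 h and 0.105 to 0.111 at 48 h, so the 48 h comparison resolved smaller differences. Hepatocyte genes marked the cells as labelled, with ALB between 14.30 and 14.44 on the arrays. The defining leukocyte gene PTPRC stayed between 3.44 and 3.88 and the endothelial gene CDH5 between 3.54 and 3.88. The other leukocyte genes read higher, CD3E 5.70 to 6.52 and CD14 6.06 to 7.12. Of the other endothelial genes KDR read 3.65 to 3.92, VWF 4.76 to 5.34 and PECAM1 6.34 to 7.02. LUM read 8.55 to 10.11 and the rest of the stellate or fibroblast list 5.05 to 7.96. At 48 h, 6 of 8 hepatocyte genes passed the test (5 lower and 1 higher in Dox+ cells), none of 3 leukocyte or 4 endothelial genes did, and 2 of 5 stellate or fibroblast genes were higher, LUM by 1.23 and DCN by 0.20. The mean log2 level of the 5 stellate or fibroblast genes was 6.56 to 6.69 on the Dox− and 6.79 to 6.94 on the Dox+ arrays at 48 h, and that of the 8 hepatocyte genes was 11.72 to 11.77 and 11.39 to 11.47. What part these differences have in the chaperone values was not tested.

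Molecular chaperones bind unfolded stretches of other proteins and release them for folding. HSP70 proteins do this in a cycle of ATP hydrolysis, which J-domain (DNAJ) proteins start and nucleotide exchange factors of the HSP110 family end, while HSP90 acts on nearly folded clients and small heat shock proteins hold misfolded ones without ATP. Each compartment has its own set, led by HSC70, HSP70 and HSP90 in the cytosol, by BiP and GRP94 in the ER, and by mortalin and the HSP60-HSP10 chamber in mitochondria. The cytosolic set is the classical target of heat shock factor HSF1, and the ER set is a classical target of the unfolded protein response.

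As a family the 72 genes moved little. At 12 h, 2 of them rose, where 0.647% of all genes did, and none fell, where 0.0202% of all genes did. An unadjusted p under 0.05 was found for 13 of them. With Student's t-test, Benjamini-Hochberg adjusted, none rose or fell. At 24 h, 3 rose against 3.01% of all genes and 3 fell against 2.81%. At 48 h, 9 rose, which is 12.5% against 11.3% of all genes, and 10 fell, which is 13.9% against 12.9%. Over the 72 genes the median difference came to −0.05, −0.02 and −0.03 at the 3 times in turn, beside −0.04, 0.02 and −0.02 over all genes. In this fit, with genes of every level kept, the shares that changed at 48 h were close to those of all genes. At 12 h, 16 of the 72 genes had every Dox+ array above every Dox− array and 17 had every one below, where 19.3% and 27.6% of all genes did. At 24 h these counts were 13 and 24 (26.6% and 23.7% of all genes), and at 48 h 12 and 20 (17.4% and 21.9%). Only 3 genes, HSPB8, HSPA4L and DNAJC18, differed by 2-fold or more at any time, where 2.5% of all genes did. A fall in a group mean may reflect a change in few or in many cells, since fewer expressing cells and less RNA per cell cannot be told apart here.

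Split by compartment at 48 h, 4 of the 8 mitochondrial genes fell and none rose, with a median of −0.22. Of the 13 ER genes 4 rose and none fell, with a median of 0.12. Of the 39 cytosolic genes 3 rose and 5 fell, with a median of −0.07, where 11.3% of all genes rose and 12.9% fell. These 39 include dim genes. With genes under the median level left out, 19 of the 24 cytosolic genes kept were lower in Dox+ cells, with a median of −0.12. The calls in that alternative are given in the closing section. The 7 remaining coding genes had 1 rise and 1 fall. At 12 h and 24 h no ER or mitochondrial gene passed the test on the chosen probe sets. Among their other probe sets at 24 h, those passing were of DNAJC14, DNAJC10 and DNAJC18 in the ER and HSPD1 in the mitochondrion. They differed by −0.91, −0.65, 0.66 and −0.82 (limma adjusted p = 0.0073, 0.040, 0.034 and 0.013 over probe sets). Over the alternatives and with single arrays left out, the 48 h median ranged from −0.30 to −0.20 for the mitochondrial genes, from 0.08 to 0.18 for the ER genes and from −0.12 to −0.05 for the cytosolic genes. The earlier medians were less settled. The cytosolic median was −0.11 at 12 h, with a range from −0.13 on the most variable probe sets to 0.03 without genes under the median level. At 24 h the cytosolic median was −0.01, with a range from −0.26 without genes under the median level to 0.02. At 12 h that of the ER genes was 0.17, with a range from −0.01 on the most variable probe sets to 0.25 without Dox+ replicate 1, and 0.06 without Dox+ replicate 2; that of the mitochondrial genes was −0.05, with a range from −0.19 on the most variable probe sets to 0.05 without Dox+ replicate 1. At 24 h the ER median was −0.07, with a range from −0.28 on the most variable probe sets (−0.20 without Dox− replicate 2) to 0.02 without Dox− replicate 1, and was −0.01 without Dox+ replicate 1. The mitochondrial median of −0.13 at 24 h ranged from −0.30 on the most variable probe sets to −0.04 after quantile normalization, and was −0.07 without Dox+ replicate 1 and −0.08 without Dox− replicate 1. Compartments were compared by counts and medians alone, and no test was made of the difference between them.

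**Figure D1:**
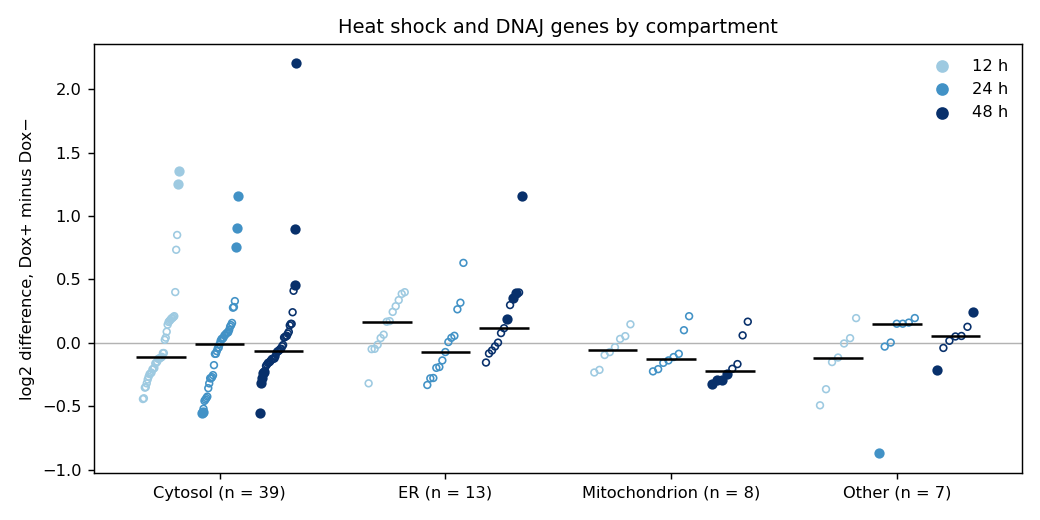
Log2 difference between Dox+ and Dox− cells for each coding heat shock or DNAJ gene (y axis) by compartment and time point (x axis, shades of blue). Filled points passed the test, open points did not, and black lines are medians; at 48 h the filled mitochondrial points lie below 0 and the filled ER points above it.

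HSPB8 had the largest rise. It encodes HSP22, a small heat shock protein that works with BAG3 and HSP70 in the selective autophagy of misfolded proteins. At 12 h its level was 6.86 and 6.55 on the Dox− arrays and 8.17 and 7.95 on the Dox+ arrays. At 24 h it was 7.23 and 7.28 without doxycycline and 8.31 and 8.51 with it. At 48 h the Dox− arrays read 6.94, 7.07 and 6.90 and the Dox+ arrays 9.04, 9.20 and 9.29. Every Dox+ array thus lay above every Dox− array at all 3 times, while the Dox− level showed no steady course. HSPB8 rose by 1.36 ± 0.17 (SE) at 12 h, by 1.16 ± 0.13 at 24 h and by 2.20 ± 0.08 at 48 h (limma adjusted p = 0.020, 0.0020 and 2.7e-07), which is 2.56-fold, 2.23-fold and 4.61-fold. The 12 h call was lost without Dox− replicate 1 (adjusted p = 0.076) or without Dox− replicate 2 (adjusted p = 0.137). The rise at 48 h exceeded that at 24 h by 1.05 on the log2 scale, in a test of the difference itself (limma adjusted p = 0.012, and 0.0095 with array weights); against 12 h the excess was 0.85 (adjusted p = 0.015, and 0.055 with array weights, so that this comparison did not pass in both fits). No other gene of the family passed both fits of either test. Of all genes, 0.501% had a higher and 0.157% a lower difference at 48 h than at 24 h in both fits, and 0.612% and 0.44% in the comparison with 12 h. A second, dimmer HSPB8 probe set differed by 0.07 at 48 h (adjusted p = 0.64 over probe sets) and so did not show the rise.

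BAG3, the partner through which HSPB8 engages HSP70, differed by 0.26 at 12 h, −0.24 at 24 h and −0.10 at 48 h without passing the test at any time. Of the 7 small heat shock proteins with an HSPB symbol, HSPB8 alone passed the test. HSPB1 (HSP27), abundant in many epithelial cells, read 12.05, 12.04 and 12.15 in Dox− and 12.23, 12.19 and 12.27 in Dox+ cells at 48 h. These arrays did not overlap, as was the case upwards for 17.4% of all genes, but the difference of 0.15 ± 0.06 gave an adjusted p of 0.108. HSPB2, HSPB3, HSPB6, HSPB7 and HSPB9, known from muscle, heart or testis, differed by −0.13 to 0.14 at 48 h.

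HSPA4L and DNAJB2 were the other cytosolic rises. HSPA4L, an HSP110-type exchange factor for HSP70, read 7.20 and 7.08 in Dox− and 8.12 and 8.67 in Dox+ cells at 12 h. At 24 h it read 7.49 and 7.03 against 7.88 and 8.45. At 48 h it read 7.42, 7.50 and 7.48 against 7.91, 7.90 and 7.96. The Dox+ arrays were above the Dox− arrays at every time, with a wide gap between the replicates of the first 2 times. HSPA4L rose by 1.25 ± 0.20 at 12 h, 0.91 ± 0.22 at 24 h and 0.46 ± 0.06 at 48 h (limma adjusted p = 0.048, 0.044 and 0.00043). The descending order of these differences did not pass its own test: the 48 h difference minus that at 12 h was −0.79 (limma adjusted p = 0.094), and minus that at 24 h it was −0.45 (adjusted p = 0.49). The 12 h call was lost without Dox− replicate 1 (adjusted p = 0.171), Dox− replicate 2 (0.265) or Dox+ replicate 2 (0.096), and the 24 h call without Dox− replicate 1 (0.055), Dox− replicate 2 (0.161) or Dox+ replicate 2 (0.112). The other HSPA4L probe set differed by 0.98, 0.35 and 0.37 at the 3 times, and its 48 h difference passed (adjusted p = 0.020 over probe sets). The other HSP110 genes, HSPA4 and HSPH1, differed by −0.11 and −0.12 at 48 h and passed at no time on the chosen probe sets. Of the 2 other HSPH1 probe sets 1 differed by −0.68 at 24 h and passed (adjusted p = 0.025 over probe sets).

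DNAJB2, a J-domain protein with ubiquitin-interacting motifs that is best known from neurons, read 8.47 and 8.27 in Dox− and 9.26 and 9.18 in Dox+ cells at 12 h. At 24 h the values were 8.40 and 8.63 against 9.13 and 9.42. At 48 h they were 8.54, 8.53 and 8.50 against 9.38, 9.34 and 9.52. Both arms kept nearly the same distance throughout. DNAJB2 differed by 0.85 ± 0.15 at 12 h without passing (limma adjusted p = 0.068). It rose by 0.75 ± 0.15 at 24 h and by 0.89 ± 0.07 at 48 h, with adjusted p of 0.025 and 1.7e-05. The 24 h call was lost without Dox− replicate 1 (adjusted p = 0.110) or Dox+ replicate 2 (0.094).

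**Figure D2:**
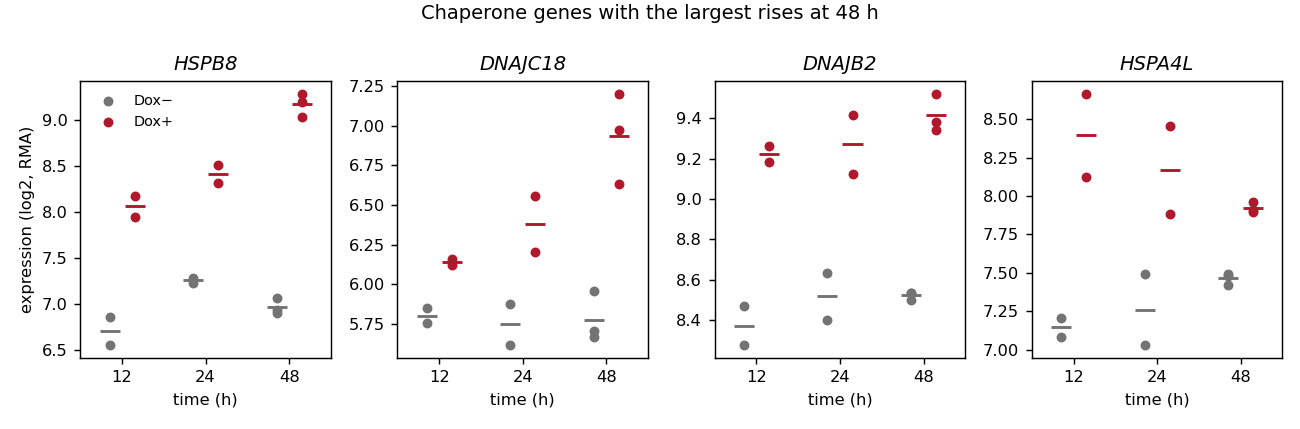
RMA level (log2, y axis, a scale of its own in each panel) of HSPB8, DNAJC18, DNAJB2 and HSPA4L at 12, 24 and 48 h (x axis). Points are single arrays and short lines are group means; red Dox+ points lie above grey Dox− points at every time in all 4 panels.

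HSPA8, HSPA1A and HSPA1B, the main HSP70 genes of the cytosol, were not analysed here, so the core cytosolic genes measured were those of HSP90, HSP40 and HSP105. HSP90AA1, the stress-inducible HSP90, read 13.65, 13.71 and 13.59 in Dox− and 13.63, 13.62 and 13.49 in Dox+ cells at 48 h, so that the arms overlapped (difference −0.07, adjusted p = 0.53). Of its 3 other probe sets 1 was lower in Dox+ cells past the test, by −0.67 at 24 h and −0.25 at 48 h (limma adjusted p = 0.027 and 0.039 over probe sets), and the other 2 passed at no time. HSP90AB1, the constitutive form, read 12.84, 12.83 and 12.84 against 12.55, 12.65 and 12.48, with every Dox+ array below every Dox− array. HSP90AB1 fell by 0.27 ± 0.06 at 48 h (limma adjusted p = 0.011), and its other probe sets differed by −0.23 (adjusted p = 0.049 over probe sets) and −0.26 (0.171). DNAJB1 (HSP40), DNAJA1, HSPH1 (HSP105) and HSPA6, all of which heat shock induces, differed by −0.06, −0.05, −0.12 and 0.05 at 48 h, with adjusted p from 0.19 to 0.70. At 24 h the second probe set of DNAJB1 was lower in Dox+ cells by −0.60 and passed (adjusted p = 0.039 over probe sets), while the chosen one differed by −0.28 and did not. HSPA6, the HSP70 that is nearly silent without stress, read between 5.25 and 5.54 on all 14 arrays.

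The remaining cytosolic and nuclear falls at 48 h were DNAJC2, HSPA14, DNAJC17 and DNAJC9. DNAJC2 (MPP11) and HSPA14 (HSP70L1) together form the ribosome-associated complex that receives new chains as they leave the ribosome. DNAJC2 read 10.70, 10.61 and 10.76 in Dox− and 10.14, 10.08 and 10.18 in Dox+ cells. HSPA14 read 9.59, 9.65 and 9.60 in Dox− and 9.26, 9.36 and 9.29 in Dox+ cells. Both partners were lower on every Dox+ array: DNAJC2 fell by 0.55 ± 0.06 (limma adjusted p = 0.00032) and HSPA14 by 0.31 ± 0.06 (0.0040). The other probe set of DNAJC2, at a mean level of 3.52, differed by −0.07, and those of HSPA14 did not pass. DNAJC17, a nuclear protein linked to splicing, fell by 0.24 (adjusted p = 0.021), and DNAJC9, a co-chaperone of histones, by 0.23 (adjusted p = 0.022). DNAJC17 lost its call without Dox− replicate 2, Dox+ replicate 1 or Dox+ replicate 2 (adjusted p = 0.072, 0.059 and 0.059), and DNAJC9 lost it when any array but Dox+ replicate 2 was left out (adjusted p from 0.051 to 0.069).

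The falls at 24 h on the chosen probe sets were those of DNAJC22, DNAJA2 and DNAJC7. Beside the other probe sets given above, a further probe set of HSP90AB1 and another of DNAJB4 passed at 24 h. They differed by −0.83 and −0.66 (limma adjusted p = 0.021 and 0.028 over probe sets). DNAJC22, a multipass membrane J-protein, read 10.14 and 10.10 in Dox− and 9.19 and 9.31 in Dox+ cells and fell by 0.87 ± 0.13 (limma adjusted p = 0.0063). At 48 h it read 9.97, 10.09 and 9.88 against 9.76, 9.78 and 9.74 and fell by 0.22 ± 0.07 (adjusted p = 0.044), a call that was lost when any array other than Dox− replicate 3 was left out (adjusted p from 0.092 to 0.137). The smaller size at 48 h was not past its own test (difference 0.66, adjusted p = 0.092), and the other DNAJC22 probe sets differed by −0.03 and 0.12 at 24 h. For DNAJA2 the other probe set differed by 0.14 at 24 h, and for DNAJC7 the others by −0.22 and 0.40, none past the test. On the chosen probe sets DNAJA2, a partner of HSC70, read 10.59 and 10.60 against 10.01 and 10.08 at 24 h. DNAJC7 (TPR2), which hands clients between HSP70 and HSP90, read 10.32 and 10.17 against 9.75 and 9.65. Both fell by 0.55 at 24 h (adjusted p = 0.039 and 0.046), neither call held when any 1 of the 4 arrays was left out (adjusted p from 0.068 to 0.203), and at 48 h they differed by −0.15 and −0.18 (adjusted p = 0.11 and 0.057).

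In the mitochondrion, the falls took in the matrix HSP70 and the J-proteins DNAJA3 and DNAJC19. HSPA9 (mortalin), which pulls imported proteins into the matrix and folds them, read 12.19, 12.17 and 12.20 in Dox− and 11.94, 11.95 and 11.94 in Dox+ cells at 48 h. DNAJA3 (TID1), its J-protein in the matrix, read 10.71, 10.61 and 10.63 against 10.30, 10.38 and 10.38. DNAJC19, a J-protein of the inner membrane related to the import motor subunit TIM14, read 9.80, 9.85 and 9.97 against 9.50, 9.59 and 9.65. In all 3 the arms were apart, with no Dox+ array reaching a Dox− array. HSPA9 fell by 0.24 ± 0.05, DNAJA3 by 0.30 ± 0.06 and DNAJC19 by 0.29 ± 0.07 (limma adjusted p = 0.0096, 0.0061 and 0.013). DNAJC19 lost its call without Dox− replicate 3 (adjusted p = 0.050) or Dox+ replicate 1 (0.052). Of the 3 other HSPA9 probe sets 2 also passed, at −0.26 and −0.41.

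The chamber of HSP60 and its lid was lower too, though only the lid passed on the chosen probe set. HSPE1 (HSP10) read 12.80, 12.83 and 12.73 in Dox− and 12.51, 12.45 and 12.42 in Dox+ cells and fell by 0.32 ± 0.06 (limma adjusted p = 0.0037). HSPD1 (HSP60) read 13.93, 13.91 and 13.87 against 13.76, 13.75 and 13.69, again without overlap, and its difference of −0.17 ± 0.06 gave an adjusted p of 0.062. On its probe set with the largest interquartile range HSPD1 differed by −0.38 and passed (adjusted p = 0.0050), and a further probe set differed by −0.42 (adjusted p = 0.0037 over probe sets). At 24 h HSPD1 and HSPE1 differed by −0.16 and −0.11 and did not pass, whereas the HSPD1 probe set with the largest interquartile range differed by −0.82 and passed (adjusted p = 0.013 over probe sets). Of the other mitochondrial genes, DNAJC11 of the cristae-organizing complex differed by −0.20 (adjusted p = 0.054), and DNAJC15 and DNAJC30 of the inner membrane by 0.17 and 0.06. By single arrays, 6 of the 8 mitochondrial genes had all Dox+ arrays below all Dox− arrays at 48 h, where 21.9% of all genes did. DNAJC15 alone had all Dox+ arrays above all Dox− arrays, where 17.4% of all genes did.

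In the ER, 4 of the 10 J-proteins and none of the 3 HSP70 and HSP90 genes rose at 48 h, where 11.3% of all genes did. A group of 3 genes without a rise cannot be told apart from that share, and the groups were not tested against each other. HSPA5 (BiP), the HSP70 of the lumen and the usual readout of the unfolded protein response, read 12.91, 13.03 and 12.90 in Dox− and 13.04, 13.04 and 12.99 in Dox+ cells at 48 h, and the arms overlapped (difference 0.08 ± 0.06, adjusted p = 0.44). HSP90B1 (GRP94), the HSP90 of the lumen, read 9.59, 9.60 and 9.06 against 9.34, 9.39 and 9.27 (difference −0.08 ± 0.13, adjusted p = 0.72). Without the low Dox− replicate 3, HSP90B1 differed by −0.26 and passed (adjusted p = 0.031). Its other, dimmer probe set differed by 0.15 at 48 h (adjusted p = 0.31 over probe sets), and the chosen probe set is of a kind that may bind related transcripts. DNAJB11 (ERdj3), the abundant lumenal partner of BiP, differed by 0.00.

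DNAJC18, an ER membrane J-protein, had the largest rise of this compartment. It read 5.76 and 5.85 in Dox− and 6.12 and 6.16 in Dox+ cells at 12 h. At 24 h it read 5.62 and 5.88 against 6.56 and 6.20. At 48 h it read 5.70, 5.67 and 5.96 against 6.63, 6.97 and 7.20, and the arms were apart at all times. The difference was 0.34 at 12 h and 0.63 at 24 h (limma adjusted p = 0.36 and 0.058), and DNAJC18 rose by 1.16 ± 0.14 at 48 h (adjusted p = 0.00031), 2.23-fold. Both other DNAJC18 probe sets passed at 48 h, at 0.77 and 0.53.

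DNAJC3 (p58IPK), which brings unfolded proteins to BiP, read 10.33, 10.42 and 10.34 in Dox− and 10.69, 10.62 and 10.84 in Dox+ cells at 48 h and rose by 0.35 ± 0.07 (limma adjusted p = 0.0066). DNAJC16 (ERdj8) read 8.18, 8.11 and 8.19 against 8.50, 8.49 and 8.67 and rose by 0.39 ± 0.07 (adjusted p = 0.0028). DNAJB9 (ERdj4), an inducible partner of BiP, read 9.72, 9.79 and 9.73 against 9.90, 9.92 and 9.98 and rose by 0.19 ± 0.06 (adjusted p = 0.044). No Dox+ array reached down to a Dox− array in these 3 genes. Of the 2 other DNAJC16 probe sets 1 passed, at 0.41. Those of DNAJC3, at 0.14 to 0.28, did not pass, and on the one with the largest interquartile range the DNAJC3 call was lost (adjusted p = 0.51). The DNAJB9 call was lost when any 1 of the 6 arrays was left out (adjusted p from 0.063 to 0.128). DNAJC1 and DNAJB14 differed by 0.40 and 0.30 without passing (adjusted p = 0.090 and 0.057).

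The ER genes also differed between time points within each arm. From 12 h to 48 h the mean level was higher in 11 of the 13 ER genes in Dox− cells, with a median of 0.35, and in all 13 in Dox+ cells, with a median of 0.37. With single arrays left out, the ER medians ranged from 0.28 to 0.38 in Dox− and from 0.35 to 0.46 in Dox+ cells. DNAJB11 was higher at 48 h by 0.67 and 0.50, DNAJB9 by 0.67 and 0.61 and HSPA5 by 0.35 and 0.45. The values of HSP90B1, 0.75 and 0.99, rested on its low 12 h replicate 1 in each arm and were 0.15 and 0.44 without it. The 2 exceptions in Dox− cells were DNAJC18, at −0.03 against 0.80 in Dox+ cells, and DNAJB12, at −0.01 against 0.04. For the 39 cytosolic genes the medians were 0.07 and 0.03, and for the 8 mitochondrial genes −0.02 and −0.14. These differences over time are given as values with no test. The labels name no processing day, and time in culture cannot be told apart from any separate processing of the time points.

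**Figure D3:**
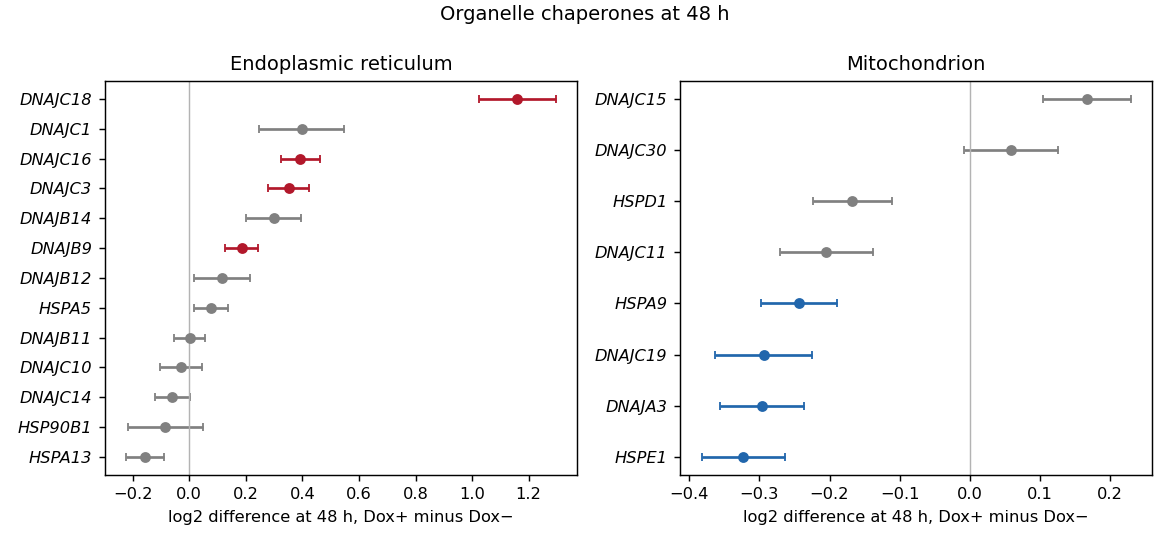
Log2 difference at 48 h between Dox+ and Dox− cells (x axis, a scale of its own in each panel) for the 13 ER and 8 mitochondrial genes (y axis). Points are fitted differences with SE bars from 3 arrays in each group; red marks a rise and blue a fall past the test, and BiP (HSPA5), at 0.08, is grey while mortalin (HSPA9) and HSP10 (HSPE1) are blue.

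Of the 7 coding genes in other places, DNAJC4, a membrane J-protein, rose by 0.24 at 48 h (limma adjusted p = 0.033), a call lost when any array but Dox+ replicate 1 was left out (adjusted p from 0.061 to 0.123). DNAJC5, the cysteine string protein of synaptic and secretory vesicles, differed by 0.02, and DNAJC13 of endosomes by 0.13. Of the 5 non-coding RNAs only DNAJC3-DT, which is divergently transcribed from the DNAJC3 locus, passed the test, and only at 48 h. It read 5.95, 6.14 and 5.97 in Dox− and 6.31, 6.29 and 6.23 in Dox+ cells and rose by 0.26 ± 0.07 (limma adjusted p = 0.024); the call was lost without Dox− replicate 1 or 3 or Dox+ replicate 1 or 2 (adjusted p from 0.072 to 0.089), and its other, dimmer probe set differed by −0.04. The other 4 differed by −0.11 to 0.08 at 48 h.

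Of the 19 genes that passed at 48 h, 16 had further probe sets, 30 in all. On 25 of these 30 the difference had the sign of the chosen probe set, 9 of them passed with that sign, and none passed with the opposite sign. In a fit of all 14 arrays together, 8 of the 19 no longer passed: HSPA4L, DNAJC19, DNAJC9, DNAJC4, DNAJC22, DNAJB9, DNAJC3-DT and DNAJC17 (limma adjusted p from 0.056 to 0.42).

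The factors that work with the chaperones were read from 4 lists. Of 22 measured genes (24 listed) for heat shock factors and cytosolic co-chaperones, 1 rose and 10 fell at 48 h, with a median of −0.13, where 11.3% of all genes rose and 12.9% fell. FKBP4 (FKBP52), an HSP90 co-chaperone of steroid receptors, fell by 0.46. BAG2 and BAG4, exchange factors or regulators of HSP70, fell by 0.41 and 0.37, and STIP1 (HOP), which links HSP70 to HSP90, fell by 0.35. The single rise was that of CRYAB, the small heat shock protein αB-crystallin, by 0.34. HSF1 itself differed by −0.12 (adjusted p = 0.23). Of 13 genes (15 listed) for the cytosolic chaperonin TRiC and its feeder prefoldin, 7 fell and none rose, with a median of −0.19; CCT5 fell by 0.32, CCT7 and PFDN2 by 0.28 and PDRG1 by 0.23.

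The mitochondrial list had 8 falls and no rise among 18 genes, with a median of −0.15, where 11.3% of all genes rose and 12.9% fell. TRAP1, the mitochondrial HSP90, fell by 0.51. GRPEL1, an exchange factor of mortalin, fell by 0.47, and GRPEL2 differed by 0.09 without passing. The import receptor TOMM70 fell by 0.44 and PAM16 of the import motor by 0.43. Of 30 genes (32 listed) for ER folding and the unfolded protein response, 3 rose and 4 fell, with a median of −0.01. This was near the shares of all genes. EDEM1, which sends misfolded glycoproteins to degradation, rose by 0.38, MANF by 0.28 and SDF2 by 0.26, while ERO1A, the oxidase that feeds disulfide formation, fell by 0.24. None of the 4 lists had a gene past the test at 12 h, where 0.647% of all genes rose and 0.0202% fell. At 24 h the cytosolic list had 1 rise and 3 falls and TRiC and prefoldin 2 falls. The ER list had 1 of each and the mitochondrial list 2 falls, where 3.01% of all genes rose and 2.81% fell.

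**Figure D4:**
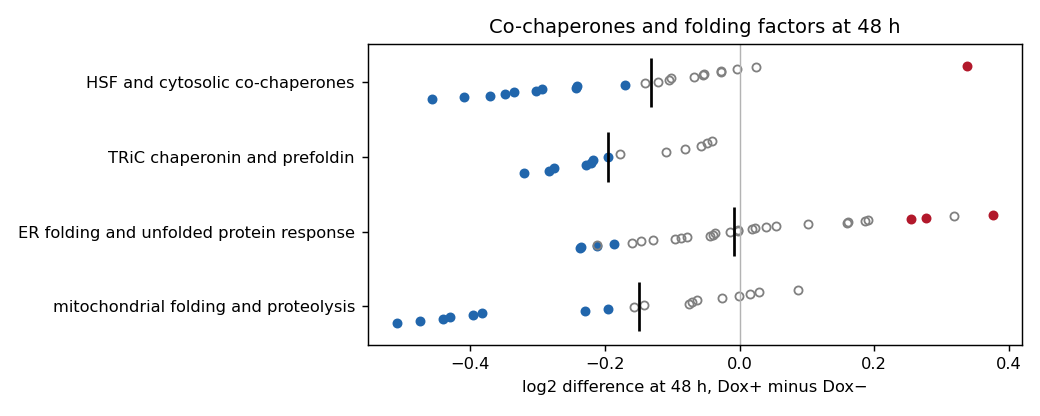
Log2 difference at 48 h between Dox+ and Dox− cells (x axis) for the measured genes of 4 lists of folding factors (y axis). Red points rose, blue points fell, open points did not pass and black lines are medians; the TRiC and mitochondrial lists hold falls but no rise.

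Promoter sequence was set beside these values, with windows from 250 bases before to 50 bases after each RefSeq transcript start (GRCh38.p14). Of the 72 genes 65 had a window, 85 windows in all, and motifs were searched on both strands. The heat shock element was written as GAANNTTC followed by NN and GAA, or the reverse complement of this, and its shorter parts as GAANNTTC and TTCNNGAA, which every full match also holds. The full element lay in the windows of 6 genes, DNAJA1, DNAJB6, HSP90AA1, HSP90AB1, HSPA6 and HSPD1. Counted by window it lay in 6 of the 85, against 0.49% of the 35116 windows of all genes. Of these 6 none rose and 1, HSP90AB1, fell at 48 h. GAANNTTC was found in 14 genes and in 15 of the 85 windows, against 6.77% of all windows. TTCNNGAA was found in 12 genes and in 12 of the 85 windows, against 7.74%. The ER stress element, written as CCAAT and CCACG with any 9 bases between them, was found in HSPA5 and HSP90B1, neither of which passed at 48 h. These were 2 of the 85 windows, against 0.0769% of all windows. A window with no match lacks only these letters.

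The stretches of 250 bases before the transcript start are shown for HSPB8, as the gene with the largest rise, and for the HSP90 genes and BiP, as core chaperones of the cytosol and the ER whose windows hold a full element and which did not rise on the chosen probe sets. Capitals mark the matches, 5′ to 3′ on the strand of the gene. In HSPB8 (chr12:119178681-119178930, plus strand) they mark GAANNTTC, 88 bases before the start; another match lies just after the start and is not shown. In HSP90AA1 (chr14:102087045-102087294, minus strand) they mark the full heat shock element at 88 bases, and in the 1 window of HSP90AB1 that holds it (chr6:44247693-44247942, plus strand) at 165 and 112 bases. In HSPA5 (chr9:125241344-125241593, minus strand) they mark the ER stress element at 66 bases, and in HSP90B1 (chr12:103930160-103930409, plus strand) at 194 and 89 bases.
HSPB8: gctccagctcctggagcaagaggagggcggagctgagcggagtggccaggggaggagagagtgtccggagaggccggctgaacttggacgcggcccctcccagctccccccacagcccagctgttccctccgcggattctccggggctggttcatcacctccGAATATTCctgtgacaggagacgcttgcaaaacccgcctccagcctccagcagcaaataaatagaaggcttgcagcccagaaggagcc
HSP90AA1: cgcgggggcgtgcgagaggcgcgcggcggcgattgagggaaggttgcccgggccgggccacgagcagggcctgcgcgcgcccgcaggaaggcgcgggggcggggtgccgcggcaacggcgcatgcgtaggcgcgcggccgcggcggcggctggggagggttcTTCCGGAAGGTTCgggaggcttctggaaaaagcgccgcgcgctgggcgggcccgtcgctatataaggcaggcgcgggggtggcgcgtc
HSP90AB1: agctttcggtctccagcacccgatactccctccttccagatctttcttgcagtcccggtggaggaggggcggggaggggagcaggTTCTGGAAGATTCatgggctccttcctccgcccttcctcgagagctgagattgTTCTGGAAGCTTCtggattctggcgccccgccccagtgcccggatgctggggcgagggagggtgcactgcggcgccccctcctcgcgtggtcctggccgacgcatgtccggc
HSPA5: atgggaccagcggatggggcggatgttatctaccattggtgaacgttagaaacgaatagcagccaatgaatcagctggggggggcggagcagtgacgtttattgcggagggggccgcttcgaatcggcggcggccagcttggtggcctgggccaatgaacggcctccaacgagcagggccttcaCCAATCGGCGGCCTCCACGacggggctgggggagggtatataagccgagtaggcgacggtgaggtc
HSP90B1: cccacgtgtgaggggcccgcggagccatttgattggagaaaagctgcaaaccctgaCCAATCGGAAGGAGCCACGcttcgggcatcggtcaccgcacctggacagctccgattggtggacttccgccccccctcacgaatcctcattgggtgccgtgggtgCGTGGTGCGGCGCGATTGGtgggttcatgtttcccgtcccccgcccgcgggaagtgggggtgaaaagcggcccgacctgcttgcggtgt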

How the data were processed

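Total RNA of Hep3BTAp73β cells was hybridised to 14 Affymetrix arrays, 1 per sample. The authors deposited log2 values after RMA; the methods name BRB-ArrayTools and the processing notes R 3.5.1, and the methods state that outliers were left out; all 14 deposited arrays were used. RMA compresses small signals, so differences of dim genes may be understated. No further background correction, filter or scaling was applied. The array holds 54675 probe sets, of which 41091 named 1 gene, 1801 several and 11721 none, beside 62 controls; 41037 gene names were matched through Entrez identifiers. The platform names carry no coordinates.

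Groups followed the labels. Differences were fitted with limma 3.58.1 in R 4.3.3 (lmFit, eBayes, two-sided, per time point), with Benjamini-Hochberg adjustment over 19775 genes; pairs of time points were compared in 1 fit of all arrays with and without array weights. The fit was tested on simulated data. Promoters were searched in Python 3.11.15. The number of arrays limits the precision. The genes and lists were chosen with earlier results of these data known. Named were core chaperones, all genes past the test, the other genes described by family, and the 4 largest changes of each list; BAG3, HSF1, CRYAB and the remaining genes outside these were chosen after their values were seen. Alternatives covered the fit, filters, probe sets, normalization, moderation, the replicate block, Student's t-test and leaving out each array. The methods name Student's t-test among their general statistics, and for the arrays a class comparison in BRB-ArrayTools. Labels give DMEM as the medium and the methods RPMI.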

Additional observations from a re-analysis of the deposited data

Results flagged for a closer look

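The rise of HSPB8 with doxycycline differed between time points: the log2 difference at 48 h exceeded that at 24 h by 1.05, with a limma adjusted p of 0.012 over all genes and of 0.0095 with array weights. Among all genes 0.501% had a difference that was higher at 48 h than at 24 h in both fits.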

How the results depend on the processing

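No difference of a named gene that passed the test changed its sign under any alternative, and no count reversed. Each alternative judged a gene on 1 probe set, so this does not cover all probe sets. Of the 30 further probe sets of genes passing at 48 h, 25 had the sign of the chosen one. At 24 h another probe set of DNAJA2, of DNAJC7 and of DNAJC22 had the opposite sign (0.14, 0.40 and 0.12), without passing. Over 557 single-gene results under the alternatives, 455 stayed on the same side of the threshold, 90 fell short of it and 12 newly passed. With all 14 arrays in 1 fit the 72 genes had 6 rises and 2 falls at 12 h, 7 falls at 24 h, and 5 rises and 6 falls at 48 h, 3 of the falls cytosolic, and 8 genes at 48 h no longer passed (DNAJC19, HSPA4L, DNAJC9, DNAJC4, DNAJC22, DNAJB9, DNAJC3-DT and DNAJC17, limma adjusted p from 0.056 to 0.42). With genes under the level of the median gene left out, 24 cytosolic, 12 ER, 7 mitochondrial and 4 other coding genes stayed. Of these 1 rose at 12 h, 7 fell at 24 h and 16 fell at 48 h, 9 of them cytosolic, with fewer genes tested. The shares of all genes called in this and the other alternative tests are not given here, so these counts have no such comparison. With each gene's most variable probe set (by interquartile range) there was 1 rise at 12 h, 10 falls at 24 h and 2 ER rises at 48 h. With every probe set tested on its own no gene rose at 12 h. Quantile normalization left 1 rise at 12 h and 1 fall at 24 h. The trend and robust options gave 10 falls at 24 h and 5 cytosolic rises at 48 h. Student's t-test called none of the 72 genes at 12 h or 24 h, in either direction (0 rises and 0 falls). A limit of 1.5-fold in place of 2-fold gave 7 genes in place of 3, where 10.5% of all genes reached it. The cause of these shifts was not tested, apart from the smaller number of genes tested.

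With each array left out in turn, where a lone array of an arm is assumed to vary like the other arm, rises ranged from 0 to 2 and falls from 0 to 0 at 12 h. They ranged from 1 to 3 and 1 to 1 at 24 h, and from 6 to 9 and 7 to 9 at 48 h. At 48 h the cytosolic rises ranged from 3 to 4 and falls from 3 to 5 (3 without Dox− replicate 2 or without Dox+ replicate 1), the ER rises from 3 to 4 and falls from 0 to 1 (HSP90B1, without Dox− replicate 3), and the mitochondrial rises from 0 to 0 and falls from 3 to 4. Rises at 12 h came to 0 without either Dox− array and to 1 without Dox+ replicate 2, rises at 24 h to 1 without Dox− replicate 1, and falls at 24 h to 1 without any of the 4 arrays.

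Samples with the same replicate number deviated together with a correlation of 0.255 at 12 h, −0.110 at 24 h and 0.089 to 0.109 at 48 h, so the numbers were not taken to pair the arrays; every 48 h array correlated best with its own number, a hint from the data only. With the replicate number as a block there were 3 rises and 1 fall at 12 h and 4 rises and 1 fall at 24 h. Pairing the 24 h arrays crosswise, an alternative chosen after seeing the data like those at 12 h and 24 h for single genes, gave 4 rises and 4 falls.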
